A study of Mus musculus with 7 samples.

Results

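Differentially methylated regions (DMRs) that lay between genes, 50 to 200 kb from the gene start to which they were assigned, were examined in airway macrophages (AMs) of Scnn1b-Tg mice and wild-type (WT) mice. They were taken from the authors' deposited table of DMRs on mouse build mm10 as all rows annotated as distal intergenic whose distance to the transcription start site (TSS) was at least 50 kb and under 200 kb in either direction, which gave 342 of 1926 DMRs. The compared groups were AMs of Scnn1b-Tg mice (3 samples) and AMs of WT mice (4 samples), both on a C57BL/6 background, from 6-week-old females per the study's methods. Scnn1b-Tg mice overexpress the sodium channel subunit Scnn1b in airway epithelium under the club cell secretory protein (CCSP) promoter and develop muco-obstructive lung disease, so the transgene is directed to epithelial cells and not to the macrophages measured here. AMs were sorted from digested lungs as CD45+ Siglec-F+ CD11c+ cells, and methylation of their DNA was read by bisulfite sequencing of tagmented whole genomes (tWGBS).

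The table gives 1 methylation level per genotype and region, the authors' mean over CpGs and samples as a fraction from 0 (no CpG copy methylated) to 1 (all methylated). It holds no level per sample and no read depth, so the levels below carry no SD and no interval, and the labels do not say whether a sample is 1 mouse. All regions are in the table because the authors called them as different between these genotypes, so no test of the difference itself was made here. Column headers do not name the genotypes. The assignment was taken from the study's description, and every direction rests on it. Bisulfite sequencing holds no transcript levels, so the sorted cell type could not be checked against marker expression.

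Methylation of cytosine in CpG dinucleotides is laid down and copied by DNA methyltransferases, and most CpGs of a mammalian genome are methylated. Distal enhancers, the elements that carry much of the cell type identity of macrophages, are the main exception outside promoters: where transcription factors such as PU.1, C/EBP and AP-1 hold them open, their CpGs are low or intermediate in methylation. Transposable elements, which make up much of the sequence between genes, are normally kept highly methylated.

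The sequences of 12 of the regions show what kinds of DNA were involved. They were read from the RefSeq copy of GRCm38, the assembly behind mm10, 5′ to 3′, from the first CpG of a region to its last, with each CpG in capitals. The end of each run is 1 base past that of the table, so that the last CpG is whole. The first set holds the 3 regions with the largest losses of methylation in Scnn1b-Tg cells and 2 losses at genes of transcriptional regulators, and each is named for the gene to which the table assigns it.
D730050B12Rik, chr13:72989760-72989859, plus strand: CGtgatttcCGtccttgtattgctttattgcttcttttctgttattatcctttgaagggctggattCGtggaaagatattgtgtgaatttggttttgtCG
4930470H14Rik, chr17:4026372-4026511, plus strand: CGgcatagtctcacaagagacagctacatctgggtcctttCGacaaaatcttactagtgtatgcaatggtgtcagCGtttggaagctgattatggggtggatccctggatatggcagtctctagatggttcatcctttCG
Rgs18, chr1:144680617-144680769, plus strand: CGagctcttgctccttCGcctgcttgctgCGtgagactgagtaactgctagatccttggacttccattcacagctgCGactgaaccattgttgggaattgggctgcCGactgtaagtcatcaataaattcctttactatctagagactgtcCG
Hdac2, chr10:36891954-36892165, plus strand: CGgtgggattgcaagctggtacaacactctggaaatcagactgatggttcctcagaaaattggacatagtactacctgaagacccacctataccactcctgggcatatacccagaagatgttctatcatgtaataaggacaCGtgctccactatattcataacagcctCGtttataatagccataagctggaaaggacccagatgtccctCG
Tbx15, chr3:99387602-99387741, plus strand: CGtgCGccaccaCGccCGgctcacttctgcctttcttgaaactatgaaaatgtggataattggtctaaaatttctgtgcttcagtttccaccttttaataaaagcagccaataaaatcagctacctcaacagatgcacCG

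The second set holds 7 regions that gained methylation in Scnn1b-Tg cells. They comprise those assigned to macrophage regulators (Nrip1, Irf2bp2, Zeb2), to secreted or blood monocyte products (Il12a, Cxcl12, F13a1) and a CpG-rich region with a low WT level (Zcchc2).
Nrip1, chr16:76548733-76549013, plus strand: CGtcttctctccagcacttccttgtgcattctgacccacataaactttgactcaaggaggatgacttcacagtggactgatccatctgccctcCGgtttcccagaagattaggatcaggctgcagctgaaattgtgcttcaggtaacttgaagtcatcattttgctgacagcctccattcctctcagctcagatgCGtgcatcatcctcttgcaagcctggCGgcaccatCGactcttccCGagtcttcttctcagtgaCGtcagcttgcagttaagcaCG
Irf2bp2, chr8:126735473-126735687, plus strand: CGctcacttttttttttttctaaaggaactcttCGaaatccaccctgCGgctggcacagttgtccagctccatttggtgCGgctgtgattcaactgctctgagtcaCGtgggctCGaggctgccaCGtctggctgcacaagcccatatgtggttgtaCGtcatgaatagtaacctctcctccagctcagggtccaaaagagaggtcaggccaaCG
Zeb2, chr2:45184868-45184929, plus strand: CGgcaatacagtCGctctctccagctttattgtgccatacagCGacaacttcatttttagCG
Il12a, chr3:68754123-68754199, plus strand: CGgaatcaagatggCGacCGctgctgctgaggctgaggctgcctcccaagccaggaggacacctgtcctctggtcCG
Cxcl12, chr6:117338772-117338828, plus strand: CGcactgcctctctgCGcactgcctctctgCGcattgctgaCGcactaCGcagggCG
F13a1, chr13:37107767-37107953, plus strand: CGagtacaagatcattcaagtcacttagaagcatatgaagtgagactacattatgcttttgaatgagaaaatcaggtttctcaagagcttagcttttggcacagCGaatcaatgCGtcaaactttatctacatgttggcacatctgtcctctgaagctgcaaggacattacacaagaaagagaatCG
Zcchc2, chr1:106072135-106072301, plus strand: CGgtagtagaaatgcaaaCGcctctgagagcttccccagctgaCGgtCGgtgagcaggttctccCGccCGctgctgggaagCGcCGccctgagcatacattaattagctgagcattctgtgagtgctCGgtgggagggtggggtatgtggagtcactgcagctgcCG

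These 12 regions were chosen for their genes and levels and do not stand for losses and gains at large. In the reference, all bases of the D730050B12Rik, 4930470H14Rik, Rgs18, Hdac2, Il12a and Cxcl12 regions are masked as repeats, whereas none of the bases of the Nrip1, F13a1 and Zcchc2 regions are. Of the 6 fully masked regions, 4 are losses and 2 are gains. In the Cxcl12 region, every 100-base window occurs elsewhere in the genome, and the reference holds 6 CpGs where the table counts 5. The Nrip1 region holds 8 CpGs in 281 bases, including a match to the CRE letters TGACGTCA at position 257, counted from 1 at the 5′ end of the run, and a match to the AP-1 letters TGANTCA at position 48. In the Irf2bp2 run, AP-1 letters occur at positions 86 and 100, and the match at 100 overlaps the E-box letters CACGTG at position 105. These matches describe the letters only, and no factor binding was measured.

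Loss of methylation prevailed, as it did among all 1926 DMRs, of which 72.9% were lower in Scnn1b-Tg cells. Of the 342 regions, 265 (77.5%, exact Clopper-Pearson 95% interval 72.7 to 81.8, counting error only) were lower in Scnn1b-Tg cells (hypomethylated) and 77 (22.5%) were higher (hypermethylated). Hypomethylated regions had a median level of 0.587 in Scnn1b-Tg cells (quartiles 0.521 and 0.649) and 0.834 in WT cells (0.775 and 0.888), with a median difference of -0.242 as Scnn1b-Tg minus WT. The WT level was 0.8 or more in 171 of them (64.5%, beside 59.3% of all hypomethylated DMRs). The Scnn1b-Tg level was under 0.5 in 53 (20.0%, beside 30.2%). Most losses thus lay between a high WT level and an intermediate Scnn1b-Tg level, and few regions were low in Scnn1b-Tg cells. Hypermethylated regions had a median of 0.80 in Scnn1b-Tg cells (quartiles 0.633 and 0.872) and 0.554 in WT cells (0.385 and 0.633), with a median difference of 0.227. In this group 38 regions reached 0.8 or more in Scnn1b-Tg cells (49.4%, beside 32.6% of all hypermethylated DMRs). In WT cells 33 were under 0.5 (42.9%, beside 54.8%).

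**Figure D1:**
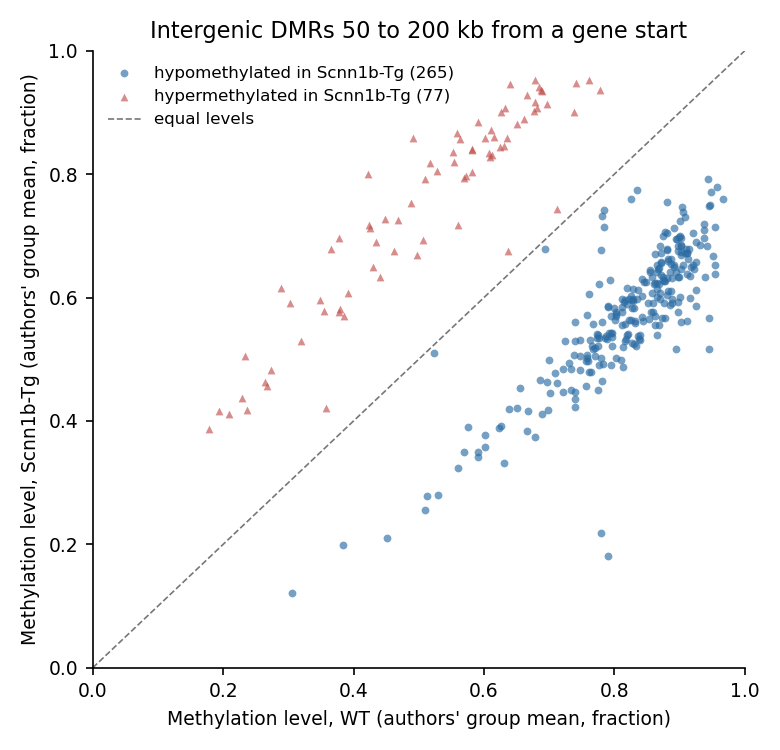
Each point is 1 of the 342 regions, with the authors' mean methylation level of Scnn1b-Tg cells on the vertical axis and of WT cells on the horizontal axis, both as fractions. The 265 hypomethylated regions (circles) crowd at WT levels near 0.834 and Scnn1b-Tg levels near 0.587, and the 77 hypermethylated regions (triangles) spread over WT levels of 0.179 to 0.778.

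Differences ranged from -0.608 to -0.0141 among losses and between 0.0322 and 0.377 among gains. A difference of at least 0.25 was found in 145 regions (42.4%), beside 35.4% of all DMRs. A difference under 0.1 was found in 10 regions (2.92%, beside 1.92% of all DMRs), 7 hypomethylated and 3 hypermethylated. The study states an average change above 0.1 as a condition for a DMR, which the levels of these 10 do not meet. The reason was not tested, and they were kept in the counts. The smallest were at 1700091H14Rik (0.510 in Scnn1b-Tg cells and 0.524 in WT cells) and at Lsamp, a cell adhesion gene of neurons (0.678 and 0.693). Among the few losses that started low, the region near Adra2c, an adrenergic receptor gene, stood at 0.121 in Scnn1b-Tg cells against 0.305 in WT cells. The Adra2c region was named after its values were seen.

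Regions had a median length and CpG number close to those of all DMRs. Their median length was 190 bp (53 to 4562 bp), beside 191 bp for all DMRs. They held 4 to 22 CpGs with a median of 5, which was also the median of all DMRs. Exactly 4 CpGs were found in 168 regions (49.1%, beside 42.9% of all DMRs) and 10 or more in 32. No DMR of the table held fewer than 4 CpGs. Median CpG density was 2.63 per 100 bp in hypomethylated and 3.28 per 100 bp in hypermethylated regions, and median GC content was 46.6% in hypomethylated and 49.9% in hypermethylated regions. With density called high at the median of all DMRs (3.12 per 100 bp), 109 of 265 hypomethylated regions (41.1%) and 41 of 77 hypermethylated regions (53.2%) were CpG-rich. This difference did not pass the test (odds ratio 0.614, two-sided Fisher exact test, adjusted p = 0.340 by Benjamini-Hochberg over 5 tests). Nor did the other comparisons of losses with gains, namely the share with 10 or more CpGs (10.2% against 6.49%, adjusted p = 0.478), the share upstream of the assigned gene (53.2% against 50.6%, adjusted p = 0.70) and the share beyond 100 kb (57.0% against 49.4%, adjusted p = 0.478, exact tests of the same family). These tests count each DMR as 1 independent unit, and sample-to-sample variation does not enter the p-values.

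The largest losses were at D730050B12Rik, 4930470H14Rik and Rgs18. The region assigned to the RIKEN gene D730050B12Rik, 173 kb from its start and between Irx2 and Irx4, which encode homeobox factors of the Iroquois family, had a level of 0.182 in Scnn1b-Tg cells against 0.790 in WT cells. Next came the region at 4930470H14Rik, between Nox3 and Arid1b, with 0.218 in Scnn1b-Tg cells and 0.779 in WT cells. Both stood apart from the rest, since the third largest loss, near Rgs18, which encodes a regulator of G protein signalling in platelets and myeloid cells, was 0.517 against 0.945. Repeats covered all bases in 9 of the 10 largest losses and 24.4% in the other (Gm5591), beside all bases in 39.2% of the 265 hypomethylated regions. Of 100-base windows over these regions, 86.5% at 4930470H14Rik, 76.0% at Rgs18, 28.2% at D730050B12Rik and 100% at Ctnnd2 occurred elsewhere in the genome after C-to-T conversion in silico. Reads from such sequence are harder to place, and the part of this in the levels was not tested.

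Further down this order, the region at Nsun3, a gene for an RNA methyltransferase of mitochondria, held 11 CpGs and had 0.562 in Scnn1b-Tg cells against 0.911 in WT cells. The region at A530072M11Rik, 199 kb from Ripk2, which encodes a kinase of the NOD receptor pathway, had 0.561 in Scnn1b-Tg cells and 0.902 in WT cells. Dach1, encoding a transcriptional cofactor of development, had 0.487 in Scnn1b-Tg cells and 0.813 in WT cells at a region 58.3 kb from its start. Ctnnd2, which encodes a catenin of neuronal junctions, had 0.539 and 0.866 in the same genotypes at 68.8 kb. The remaining members of the 10 (Gm11487, Gm21637 and Gm5591) were at predicted genes, with levels of 0.516 to 0.586 in Scnn1b-Tg cells and 0.895 to 0.945 in WT cells. In RefSeq, the Gm21637 region lay 11.1 kb from the protein-coding start of Gm5923, and the Gm5591 region 7.23 kb from that of Gm4454. Among losses with the most CpGs, both the Dip2c and the Elfn1 region held 22 CpGs. They stood at 0.561 against 0.739 and at 0.672 against 0.912, each as Scnn1b-Tg against WT, smaller differences than those of the 10 regions above.

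**Figure D2:**
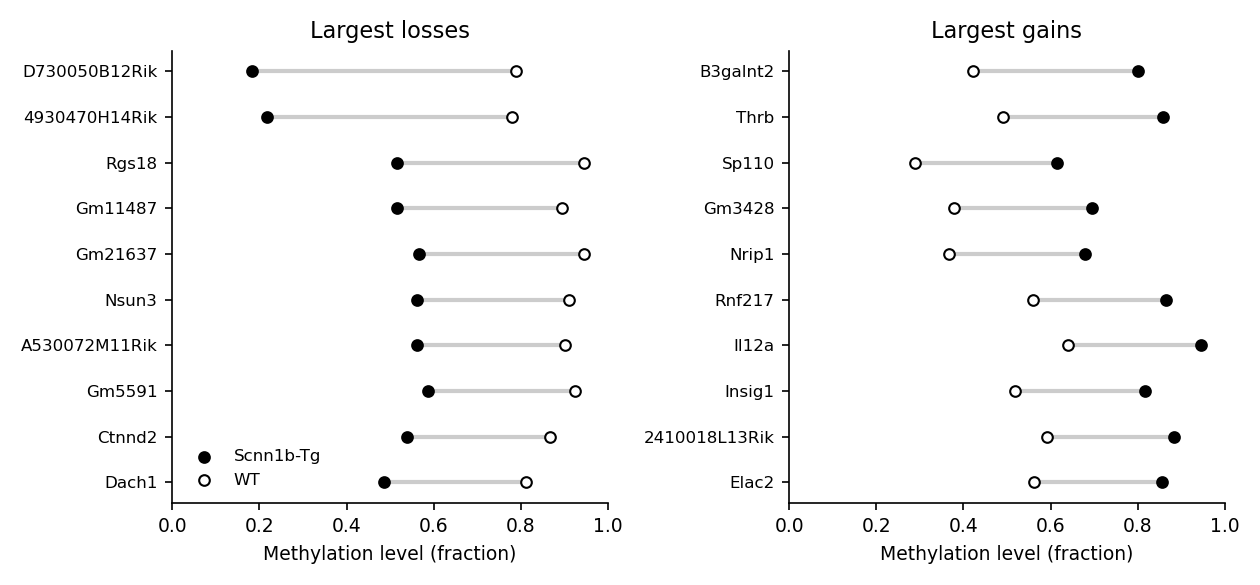
Methylation level (fraction, authors' mean per genotype) of the 10 regions with the largest loss (left) and the 10 with the largest gain (right), each named for its assigned gene. Filled circles are Scnn1b-Tg cells and open circles WT cells. D730050B12Rik and 4930470H14Rik reach 0.182 and 0.218 in Scnn1b-Tg cells, and no other region of the left panel falls under 0.487.

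The largest gains were assigned to B3galnt2, Thrb and Sp110. The region 56.3 kb from B3galnt2, which encodes a glycosyltransferase acting on dystroglycan, had 0.80 in Scnn1b-Tg cells against 0.423 in WT cells. Near Thrb, the gene of thyroid hormone receptor beta, the levels were 0.858 in Scnn1b-Tg cells and 0.491 in WT cells. At the region assigned to Sp110, a nuclear body protein induced by interferon, they were 0.616 and 0.289, as Scnn1b-Tg and WT. That region lay 150 kb from the start of Sp110 and overlapped the RefSeq protein-coding gene Gm7592. Near Insig1, which encodes a sterol-sensing protein that holds SREBP in the endoplasmic reticulum, the levels were 0.818 and 0.518 in the same order. The Nrip1 region printed above had 0.679 in Scnn1b-Tg cells against 0.366 in WT cells. Nrip1 encodes RIP140, a cofactor of nuclear receptors that also acts on NF-kB target genes in macrophages. This region lay 175 kb upstream of Nrip1 and covered the start of the RefSeq noncoding gene Gm30726. Gains at Rnf217 (0.866 against 0.559), Gm3428 (0.696 against 0.378), Elac2 (0.857 against 0.563) and 2410018L13Rik (0.884 against 0.591) completed the set with Il12a, described next. The Gm3428 region lay 43.9 kb from the RefSeq protein-coding start of Pate13. Repeats covered all bases of the B3galnt2, Thrb, Il12a and Insig1 regions, beside all bases in 28.6% of the 77 hypermethylated regions. The share was 97.3% at Rnf217, 79.2% at Gm3428, 69.8% at Elac2, 36.6% at 2410018L13Rik, 34.0% at Sp110 and 0% at Nrip1. All windows of the Elac2 region recurred in the genome.

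Of 13 gene lists with 708 distinct genes, 18 genes (2.54%) had 1 region each, beside 1.05% of 21896 protein-coding RefSeq genes. Most of the 18 were neural adhesion and guidance genes (6 of 94 listed) or developmental transcription factors (5 of 141 listed). The pooled share therefore does not describe the immune and macrophage lists. Among the 18 regions, 12 were hypomethylated and 6 hypermethylated. For 6 lists there was none, namely airway macrophage identity (30 genes), cytokine and growth factor receptors (48), Toll-like receptor and NF-kB signalling (52), phagocytosis and scavenger receptors (45), markers of leukocytes other than macrophages (51) and lung epithelial or stromal markers (40). A gene assignment gives the position of a region and is no evidence that the region controls the gene. At these shares a list of about 50 genes would hold few or no regions, so nothing is read from an empty list.

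Of the immune lists, that of cytokines, chemokines and growth factors held 2 regions and those of monocyte markers and of IRF, STAT and JAK signalling 1 each. These 4 were gains, beside 22.5% of all 342 regions, and the numbers are too small to say more. Il12a, which encodes the p35 subunit of interleukin 12, had a region with 0.946 in Scnn1b-Tg cells against 0.640 in WT cells, 62.7 kb downstream of its start. Cxcl12, the chemokine that binds CXCR4, had 0.936 in Scnn1b-Tg cells and 0.778 in WT cells at 170 kb, in sequence whose windows all recur in the genome. F13a1, the coagulation factor XIII subunit made by monocytes and interstitial macrophages, had 0.828 in Scnn1b-Tg cells and 0.609 in WT cells at 57.5 kb. The Irf2bp2 region (9 CpGs), 142 kb upstream of a gene whose product is a corepressor partner of IRF2, was low in both genotypes, with 0.463 in Scnn1b-Tg cells and 0.265 in WT cells. Zeb2 and Mitf, from the list of macrophage transcription factors (72 genes), had 1 region each, in opposite directions. Zeb2, a repressor needed for the identity of tissue macrophages, stood at 0.596 in Scnn1b-Tg cells against 0.349 in WT cells, and Mitf, a relative of TFEB and TFE3 in the control of lysosomal genes, at 0.625 in Scnn1b-Tg cells against 0.848 in WT cells. Hdac2, a histone deacetylase gene and the only 1 of 49 listed DNA methylation and chromatin enzymes with a region, stood at 0.583 in Scnn1b-Tg cells and 0.799 in WT cells.

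The lists of development and of the nervous system held 11 regions, 10 of them losses. All 5 regions at developmental transcription factors (141 genes listed) were hypomethylated, as were 5 of 6 at neural adhesion and guidance genes (94 listed), beside 77.5% of all 342 regions. Levels in Scnn1b-Tg cells against WT cells were 0.632 against 0.881 at Isl1, 0.636 against 0.871 at Six2, 0.750 against 0.947 at Tbx15 and 0.491 against 0.795 at Msx1, all of them genes that pattern embryonic tissue. Among adhesion genes, Cntn6 had 0.498 in Scnn1b-Tg cells and 0.757 in WT cells, Pcdh20 0.570 and 0.803, Epha7 0.678 and 0.880, and Cntnap2 0.557 and 0.768. The loss at Lsamp was the small one given above (0.678 and 0.693). The exception was the cadherin gene Cdh18, with 0.797 in Scnn1b-Tg cells against 0.573 in WT cells. With so few regions a list, no statement beyond these counts was made.

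**Figure D3:**
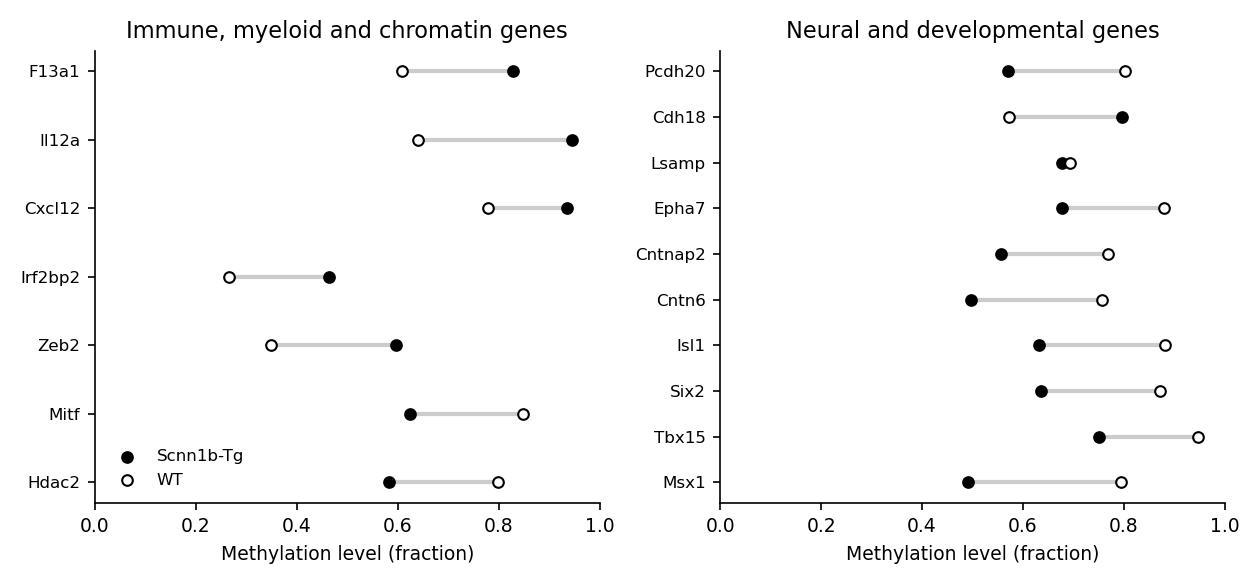
Methylation level (fraction, authors' mean per genotype) of 17 of the 18 regions assigned to genes of the lists, with immune, myeloid and chromatin genes on the left and neural and developmental genes on the right. Filled circles (Scnn1b-Tg cells) lie to the right of open circles (WT cells) at F13a1, Il12a, Cxcl12, Irf2bp2, Zeb2 and Cdh18, and to the left of them at the other 11 shown.

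Other regions near genes of immune signalling, named after their values were seen, went both ways. Gains included Ly86, which encodes the MD-1 partner of the receptor RP105 (0.506 in Scnn1b-Tg cells and 0.233 in WT cells, 129 kb away). They also included Ptger2, a prostaglandin E2 receptor gene (0.803 and 0.582), Smad6, an inhibitory SMAD gene (0.582 and 0.379), and Pik3r1, the gene of the p85 subunit of PI3 kinase (0.712 and 0.426, 147 kb away). Losses were found near the death receptor gene Fas (0.478 and 0.709, 55.5 kb away) and near Slc7a11, which encodes a cystine transporter (0.662 and 0.887). A loss was also listed at Crlf2, a chain of the TSLP receptor (0.451 and 0.775), but there 4 CpGs spanned 4562 bp and 89.4% of windows recurred in the genome.

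Hypermethylated regions with many CpGs were low in WT cells. The region at Tpra1 (14 CpGs) had 0.457 in Scnn1b-Tg cells against 0.268 in WT cells, that at Zswim6 (11 CpGs) 0.482 against 0.273, and that at Zcchc2 (10 CpGs) 0.437 against 0.229. A region 145 kb from Bcl11b, a transcription factor gene of the T cell lineage, held 11 CpGs with 0.607 in Scnn1b-Tg cells and 0.391 in WT cells (assigned to 4930465M20Rik). Only 4930524N10Rik on the X chromosome (13 CpGs) was above 0.5 in WT cells among these 5, with 0.693 in Scnn1b-Tg cells and 0.506 in WT cells. None of the 5 exceeded 34.2% repeat sequence.

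Repeat content differed between these regions and both intronic and the farthest intergenic DMRs. The repeat share of intronic and intergenic sequence outside DMRs was not computed. These tests therefore cannot tell a trait of the DMRs from a trait of the sequence class in which they lie. At least 50% of the bases were repeat-masked in 196 of 342 regions (57.3%), against 189 of 513 intronic DMRs (36.8%, odds ratio 2.30, adjusted p = 7.58e-08) and 248 of 367 intergenic DMRs at 200 kb or more (67.6%, odds ratio 0.644, adjusted p = 0.0389, two-sided Fisher exact tests, Benjamini-Hochberg over 15 tests). The share in intergenic DMRs under 50 kb was 52.1% (odds ratio 1.23, exact test, adjusted p = 0.269). The comparison with the farthest DMRs depended on the choice of regions. With 7 or more CpGs only, the odds ratio was 0.137 (exact test, adjusted p = 8.37e-05), and it passed under 3 further alternatives (0.588 to 0.623). The adjusted p of the exact test was 0.0911 without the X chromosome and 0.140 at 75 to 150 kb. With classes sorted anew by distance to RefSeq gene starts, which makes a largely different set, the odds ratio was 1.14 (exact test, adjusted p = 0.799). With 7 or more CpGs only, the odds ratio against intronic DMRs was 1.78 (exact test, adjusted p = 0.353). Sequence that recurred in the genome over at least 50% of its windows was found in 96 regions (28.1%), against 17.5% of intronic DMRs. The other intergenic DMRs had similar shares, 28.0% under 50 kb and 30.2% at 200 kb or more.

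By direction, 156 of 265 hypomethylated regions (58.9%) and 40 of 77 hypermethylated regions (51.9%) were mostly repeat (odds ratio 1.32, Fisher exact test, adjusted p = 0.478). With 7 or more CpGs only, the odds ratio was 6.31 (exact test, adjusted p = 0.0202). In intergenic DMRs under 50 kb these shares were 61.4% and 26.9%, and in intronic DMRs 40.1% and 26.6%, for losses and gains. Over the whole intergenic range, the repeat share of gains was 21.9% under 25 kb, 34.1% at 25 to 50 kb, 48.0% to 57.1% in the 4 distance bins from 50 to 200 kb, and 53.7% and 83.3% in the bins beyond. These shares by distance are a description, and no difference between distance bins was tested.

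**Figure D4:**
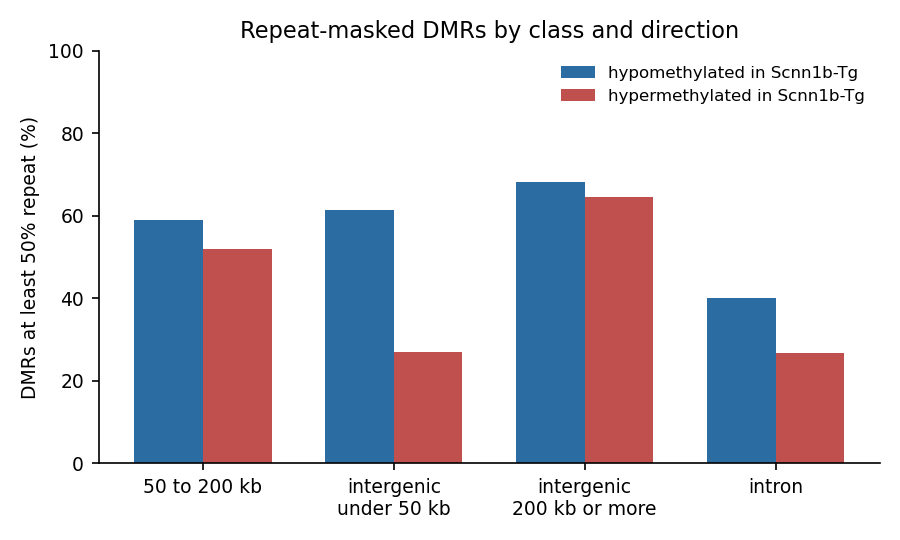
Share of DMRs (percent) of which at least 50% of bases are repeat-masked, by class, for DMRs hypomethylated (left bar) and hypermethylated (right bar) in Scnn1b-Tg cells. At 50 to 200 kb the bars stand at 58.9% and 51.9%, and under 50 kb at 61.4% and 26.9%.

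No difference in direction between these regions and other classes passed the test. Their hypomethylated share of 77.5% compared with 73.2% of 403 intergenic DMRs under 50 kb (odds ratio 1.26, adjusted p = 0.303), 82.3% of 367 at 200 kb or more (0.741, adjusted p = 0.210) and 75.8% of 513 intronic DMRs (1.10, adjusted p = 0.717, Fisher exact tests of the same 15). Within the range, the share was 75.7% of 103 regions at 50 to 75 kb, 72.0% of 50 at 75 to 100 kb, 76.5% of 115 at 100 to 150 kb and 85.1% of 74 at 150 to 200 kb, with intervals that overlapped throughout. A WT level of at least 0.8 among losses was found in 64.5%, against 54.5% of intronic losses (odds ratio 1.52, adjusted p = 0.0608), and a difference of at least 0.25 in 42.4%, against 34.0% of DMRs under 50 kb (1.43, adjusted p = 0.0713), neither of which passed the exact test. CpG-rich regions made up 43.9%, against 52.1% of DMRs under 50 kb (0.718, exact test, adjusted p = 0.0820). Intergenic DMRs at 200 kb or more gave 43.1% for large differences and 44.4% for CpG-rich regions (each adjusted p = 0.940, exact tests). Of their losses, 71.5% had a high WT level (exact test, adjusted p = 0.184), as had 61.0% of losses under 50 kb (0.539). Intronic DMRs gave 35.1% for large differences (exact test, adjusted p = 0.0924) and 47.0% for CpG-rich regions (0.539).

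**Figure D5:**
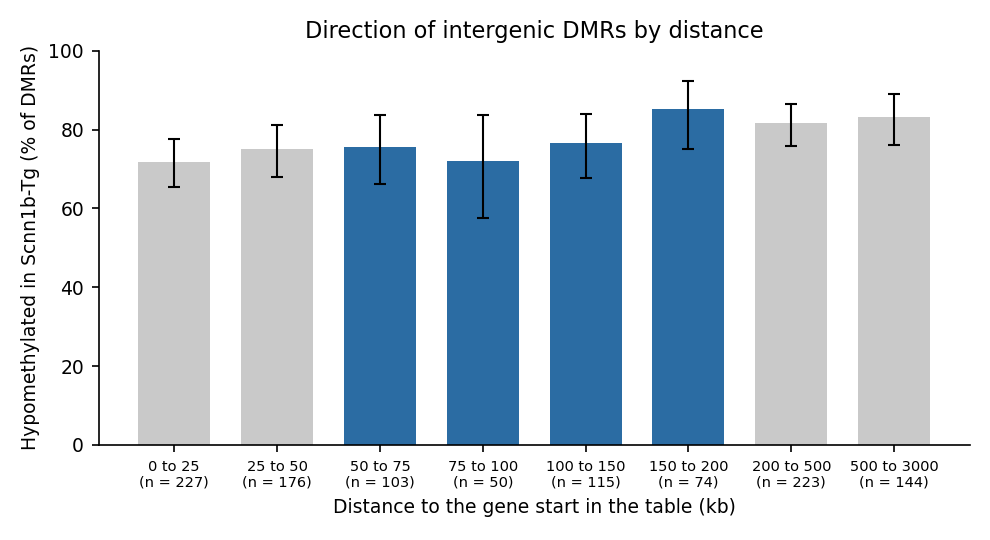
Share of intergenic DMRs (percent) hypomethylated in Scnn1b-Tg cells by distance to the assigned gene start (kb), with exact 95% Clopper-Pearson intervals that cover counting error only. Blue bars are the 342 regions described here, between 72.0% and 85.1%, and grey bars are nearer and farther intergenic DMRs.

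Just inside 50 kb lay a loss at Ythdf3, a reader of methylated RNA (0.639 in Scnn1b-Tg cells and 0.955 in WT cells, 50.1 kb), and just outside a loss at 4930441H08Rik (0.539 and 0.759, 49.9 kb). Just inside 200 kb lay a loss at Fbxl4 (0.759 and 0.825), and just outside a gain at Prelid2 (0.823 and 0.612), followed by a loss at Igsf11 (0.531 and 0.802, 201 kb).

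Intergenic in the table did not always mean free of genes in RefSeq. Of the 342 regions, 66 (19.3%) overlapped a RefSeq gene, beside 17.1% of intergenic DMRs under 50 kb and 6.81% at 200 kb or more. Most often this was a long noncoding RNA (37 regions), while 14 overlapped a protein-coding gene and 1 overlapped both kinds. A RefSeq gene start lay within 3 kb of 22 hypomethylated (8.30%) and 9 hypermethylated regions (11.7%), among them Gm30726 inside the Nrip1 region, Gm38557 beside the Zswim6 region and Gm33539 beside a region at Tox, a transcription factor gene of lymphocytes (0.576 in Scnn1b-Tg cells and 0.897 in WT cells). In intergenic DMRs under 50 kb, a start lay within 3 kb of 11.5% of losses and 17.6% of gains, and at 200 kb or more of 3.31% and 4.62%. The assigned gene was the nearest RefSeq start for 58 regions and the nearest protein-coding start for 216. Only 124 regions (36.3%) lay at least 50 kb from every RefSeq gene start of any kind. Distance from protein-coding genes was kept better, since 320 regions (93.6%) lay at least 50 kb from every protein-coding start. Gaps between protein-coding genes of over 1 Mb held 75 of 324 regions.

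The regions were spread over 319 genes and 20 chromosomes. The X chromosome held 37 (10.8%, 28 of them hypomethylated), beside 8.0% of all DMRs. Chromosome 13 had the lowest share of losses, 11 of 20 (55.0%), and chromosome 19 the highest, 8 of 8. Aasdhppt had 3 regions, and 21 genes had 2. Close pairs were few, with 6 neighbouring pairs within 10 kb, of which 5 shared a direction. Within 100 kb 11 of 22 pairs did, beside 212 of 322 neighbouring pairs at any distance. At Efr3a, 2 regions 61 bp apart had nearly equal levels, 0.706 and 0.704 in Scnn1b-Tg cells and 0.878 and 0.881 in WT cells. Of their windows, 83.8% and 29.3% recurred in the genome. The authors' smoothing shares information between neighbouring CpGs, and its part in the likeness of close regions was not tested. At Tpra1, in contrast, 2 regions 2.55 kb apart moved in opposite directions, with 0.390 in Scnn1b-Tg cells against 0.575 in WT cells (11 CpGs) and 0.457 against 0.268 (14 CpGs).

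Opposite directions also met across wider gaps. Of 32 intervals between neighbouring protein-coding genes that held several regions, 16 were hypomethylated throughout, 16 were mixed and 0 were hypermethylated throughout. Losses made up 77.5% of all 342 regions, and whether these counts differ from that share was not tested. Between Il12a and 1110032F04Rik, the gain described above lay 44.8 kb from a loss with 0.695 in Scnn1b-Tg cells and 0.896 in WT cells. Between Irf2bp2 and Tomm20, the gain at Irf2bp2 shared its 337 kb interval with a loss nearer Tomm20, a gene of mitochondrial protein import, with 0.392 in Scnn1b-Tg cells and 0.626 in WT cells. At Tsn, 2 regions 15.7 kb apart had 0.480 against 0.761 and 0.890 against 0.661, each as Scnn1b-Tg against WT.

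Motif letters were searched on both strands in 300 bp windows centred on each region, as a description without a test. The AP-1 letters TGANTCA occurred in 7.55% of hypomethylated and 10.4% of hypermethylated windows, beside 8.46% of the other DMRs and 7.60% of 684 windows centred 5 kb to either side. The C/EBP letters TTGCNNAA were in 38 hypomethylated (14.3%) and 4 hypermethylated windows (5.19%), beside 13.9% of other DMRs and 15.5% of flanks. Interferon response letters GAAANNGAA were in 41 (15.5%) and 6 (7.79%) windows in the same order, beside 12.1% of other DMRs and 12.0% of flanks. RUNX letters TGTGGT were in 21.5% and 19.5% (17.7% of other DMRs, 19.7% of flanks), and the PU.1 core GAGGAAGT in 1.89% and 2.60% (1.96% and 1.46%). Matches to the NF-kB consensus occurred in 9.43% and 9.09% of windows of losses and gains, beside 8.46% of other DMRs and 4.24% of flanks. STAT letters TTCNNNGAA were in 12.8% and 11.7% (11.7% of other DMRs, 10.7% of flanks), and the E-box CACGTG, bound by TFE3 and MITF, in 3.77% and 5.19% (5.93% and 2.05%). The CRE letters were in 1 loss (0.377%) and 1 gain (1.30%), beside 0.442% of other DMRs and 0 flanks. Every DMR held at least 4 CpGs, whereas flanks were not matched for CpG or GC content. The E-box and CRE letters contain a CpG and the NF-kB letters are rich in G and C. For these 3 motifs, flanks are therefore no like-for-like baseline, and nothing is read from the contrast with them. No motif contains the letters of another, but matches may overlap.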

How the data were processed

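tWGBS was done by the authors on AMs of 3 Scnn1b-Tg and 4 WT samples. Per the labels, reads were trimmed with Trimmomatic 0.36, aligned to mm10 with BWA 0.7.8 and processed with Picard and MethylDackel. Per the study's methods, levels were smoothed with bsseq and DMRs were called with DSS. Smoothing shares information between neighbouring CpGs. The deposited table gives the methylation level of each genotype as a fraction, a mean over CpGs and samples. Its columns for the difference and the area statistic hold the authors' own comparison and were not used, and the difference was recomputed from the levels. Depth and levels per sample are unknown here, so no test across samples was made.

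All 1926 DMRs start and end on a reference CpG. Repeat masking, GC content and gene starts came from RefSeq (GRCm38). A region counted as recurring if at least 50% of its 100-base windows occurred again on the reference, after C-to-T conversion, as exact matches. Shares were compared with two-sided Fisher exact tests (SciPy 1.17.1), 15 between classes and 5 within, with Benjamini-Hochberg adjustment in each family and a threshold of 0.05. The procedure was tested on simulated data. Named regions were the 10 with the largest difference and the 5 with the most CpGs per direction, all at listed genes, genes with several regions, and those nearest either bound, apart from a few that are not reported here. Regions and lists were chosen with earlier results of these data known. Alternatives were other bounds, a minimum difference or CpG number, no X chromosome, RefSeq gene starts, 1 DMR per run and no recurring sequence.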

Additional observations from a re-analysis of the deposited data

How the results depend on the processing

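Of 140 repeated tests (20 tests under 7 alternatives), 115 kept their direction and their side of the threshold, and 14 turned direction, 13 of which passed neither as reported nor under the alternative. Odds ratios below set first the class of these regions as each alternative defines it, with adjusted p in parentheses. The repeat share against DMRs at 200 kb or more gave 0.651 (0.140) at 75 to 150 kb and 0.664 (0.0911) without the X chromosome. It turned direction to 1.14 (0.799) with RefSeq gene starts, where intergenic DMRs were sorted anew into 285 regions, 777 nearer and 50 farther DMRs. At most 124 of the 342 regions remained among these 285, so results with RefSeq gene starts describe a largely different set. Against intronic DMRs it gave 1.78 (0.353) with at least 7 CpGs, which leaves 67 regions, in that subset 0.137 (8.37e-05) against DMRs at 200 kb or more, and within it losses against gains gave 6.31 (0.0202). With RefSeq gene starts, the repeat share against DMRs under 50 kb was 1.63 (0.00550), and large differences gave 1.44 (0.0320) against these and 1.57 (0.0117) against intronic DMRs. The other turns, none passing (adjusted p 0.261 or more), were these. With RefSeq gene starts, DMRs at 200 kb or more gave 1.11 for a high WT level, 1.17 for large differences and 1.33 for CpG-rich regions, and losses against gains gave 0.777 beyond 100 kb and 0.787 for 10 or more CpGs. With at least 7 CpGs, large differences gave 0.942 and CpG-rich regions 1.49 against intronic DMRs, CpG-rich regions 1.00 against DMRs under 50 kb, and losses against gains 0.646 beyond 100 kb. The CpG-rich share against DMRs at 200 kb or more was 1.00 without the X chromosome and 1.28 without recurring sequence. The hypomethylated share against intronic DMRs was 0.964 at 75 to 150 kb, and the upstream share of losses against gains 0.971 with differences of at least 0.2. The high WT level of losses against intronic DMRs passed with differences of at least 0.2 (1.72, 0.0173), with RefSeq gene starts (1.68, 0.0117) and without recurring sequence (1.66, 0.0369), which also gave 1.62 (0.0386) for large differences against DMRs under 50 kb. The causes of these shifts were not tested. With 1 DMR per run, all 20 tests kept their call. That choice, by CpG number, and the removal of recurring sequence were added after seeing the data. The planned pick by area statistic was not run, since it uses the authors' own comparison. No paired analysis was possible because the table holds 1 mean per genotype, and for the same reason no replicate could be left out.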
